A study of Mus musculus with 2 samples.

Results

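The circadian clock is a transcriptional loop in which the activators CLOCK and BMAL1 (encoded by Arntl) bind E-boxes and drive their own repressors, the PER and CRY proteins, as well as a set of output genes that carry the rhythm into metabolism. In liver, the best known outputs are Dbp, Tef and Hlf, the proline and acidic amino acid-rich basic leucine zipper (PAR bZIP) activators, which bind D-boxes in genes of bile acid, heme and xenobiotic metabolism, and Nfil3, a related repressor that binds the same D-boxes and peaks in the opposite phase. Usp2, Noct, Ciart and Bhlhe41 are further rhythmic genes tied to this loop.

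These clock output genes, Dbp, Tef, Hlf, Nfil3, Usp2, Noct, Ciart and Bhlhe41, were described in a spatial transcriptomics data set of mouse liver. The genes were taken by symbol from the count tables. Of the 8 symbols, 7 were found among 19465 listed genes, and the level of Ciart was not analysed here. They were chosen by earlier results of the same 2 sections, from the same contrast of genotypes and the same lobule axis that are described here. The levels and ratios are therefore a description with no test.

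The data set holds 1 liver section of an AEG-1-WT mouse and 1 of an AEG-1-C75S littermate, each a naive female of 8 weeks. AEG-1, encoded by Mtdh, is an oncoprotein that is palmitoylated on cysteine 75, and the AEG-1-C75S mouse carries a CRISPR/Cas9 knock-in that puts serine in that place throughout the body. Littermates came from crosses of heterozygous parents, and the same lobe was taken from each animal. The sections are called WT and C75S from here on. Formalin-fixed, paraffin-embedded sections of 5 μm were measured with the 10x Visium assay, in which pairs of gene-specific probes are ligated on the tissue RNA and captured on barcoded spots. The time of day at which the livers were collected is not given in the sources used here, and with 1 animal per genotype a difference of genotype, animal, slide area and collection cannot be told apart.

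After spots with more than 50000 unique molecular identifiers (UMIs) were left out, 2309 WT spots with 42246988 UMIs and 2163 C75S spots with 41674347 UMIs remained. Median depth per spot was 16830 and 18808 UMIs, respectively. The tables shared 1896 barcodes, which name positions on the array rather than cells. Mtdh was at 74.4 CPM (UMIs scaled to a total of 1000000) in WT and 73.3 CPM in C75S, and the assay counts ligated probes without reading the edited codon, so this is no check of the genotype. All intervals are exact 95% intervals that cover counting error only, not the spread between animals. A spot holds several cells, so fewer cells of a type and less RNA per cell cannot be told apart.

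The members lie on GRCm38 (mm10) at chr7:45705088-45710203 (Dbp), chr15:81802421-81826863 (Tef), chr11:90336536-90390895 (Hlf), chr13:52967209-52981073 (Nfil3), chr9:44067021-44095627 (Usp2), chr3:51224447-51251644 (Noct) and chr6:145858243-145865558 (Bhlhe41). The E-box, CACGTG, is the site through which CLOCK and BMAL1 are known to act on output genes such as Dbp, and its copies in and near the members were read from that genome. In each line below, 30 bases are written 5′ to 3′ on the strand of the gene, with the E-box in capitals. They show both copies in Dbp, the copies of Tef and Bhlhe41 that lie before a RefSeq start, the copy 158 bases before the GENCODE start of Usp2, and the copy of Noct nearest to its start. The choice followed no single rule, and Hlf and Nfil3, which hold 8 and 4 copies, are not printed. A copy of Hlf lay 1252 bases from its start, nearer than that of Noct, at 1744 bases. The lines therefore link no copy with a level in either section.
Dbp, intron, chr7:45707700-45707729, plus strand: acattccctcgcCACGTGagtccgccttcc
Dbp, intron, chr7:45707813-45707842, plus strand: agctgtaggccaCACGTGatgcggccctga
Tef, untranslated part of an exon, chr15:81802534-81802563, plus strand: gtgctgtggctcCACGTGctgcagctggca
Tef, intron, chr15:81811264-81811293, plus strand: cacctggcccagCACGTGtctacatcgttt
Usp2, upstream of the gene, chr9:44066851-44066880, plus strand: gtgctttttctcCACGTGgttctctgtata
Noct, intron, chr3:51226179-51226208, plus strand: attaaaggctagCACGTGgcgccaagtttc
Bhlhe41, upstream of the gene, chr6:145865556-145865585, minus strand: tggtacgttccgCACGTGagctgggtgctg

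In the 250 bases before each annotated RefSeq start (GRCm38.p6), all 8 members had a window and Tef had 2. CACGTG, which reads the same on both strands, lay in both Tef windows, at 127 and 138 bases before the start, in the Bhlhe41 window at 153 bases before the start, and 3 times in the Ciart window. The windows of Dbp, Hlf, Nfil3, Usp2 and Noct held none. Over all 32851 windows of that length, 6.02% held CACGTG. The D-box letters TTATGTAA or TTACGTAA, searched on both strands, were in no member window, and were in 0.819% and 0.113% of all windows, respectively. TGACGTCA, the cAMP response element, was in the Hlf window (1.55% of all windows), and AGGTCA, the core of the site of the REV-ERB receptors, was in the Nfil3 window on the opposite strand (14% of all windows). The Usp2 window belongs to a RefSeq start inside the longer GENCODE gene. The windows of Tef, of Usp2 and of Noct that lie outside exons are printed because these genes held an E-box there (in capitals) or had the lowest C75S levels relative to WT.
Tef, second start, chr15:81811164-81811413, plus strand: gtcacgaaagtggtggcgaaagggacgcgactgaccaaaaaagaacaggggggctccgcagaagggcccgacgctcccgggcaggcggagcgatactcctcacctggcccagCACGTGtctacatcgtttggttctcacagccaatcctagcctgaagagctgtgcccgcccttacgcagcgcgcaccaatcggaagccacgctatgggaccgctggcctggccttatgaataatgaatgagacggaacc
Usp2, chr9:44084670-44084919, plus strand: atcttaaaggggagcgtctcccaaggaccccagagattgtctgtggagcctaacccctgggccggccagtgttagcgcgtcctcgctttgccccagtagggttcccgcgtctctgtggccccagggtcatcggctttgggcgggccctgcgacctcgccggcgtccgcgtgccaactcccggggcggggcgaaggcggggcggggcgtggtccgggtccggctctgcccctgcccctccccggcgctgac
Noct, chr3:51224197-51224446, plus strand: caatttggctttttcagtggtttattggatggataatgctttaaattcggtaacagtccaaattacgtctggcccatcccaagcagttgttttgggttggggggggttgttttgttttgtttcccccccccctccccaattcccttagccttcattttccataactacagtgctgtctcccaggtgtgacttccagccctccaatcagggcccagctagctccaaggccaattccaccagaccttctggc

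Within the gene bodies (GENCODE vM21), CACGTG occurred 8 times in Usp2, 7 times in Noct, 6 times in Tef, 8 times in Hlf, 4 times in Nfil3 and 2 times each in Dbp and Bhlhe41. Usp2 spans 28607 bases and Noct spans 27198 bases, and 4.76% and 4.36% of equally long stretches of their chromosomes held at least as many copies. The same share was 10.9% for Dbp, 9.17% for Tef, 8.54% for Nfil3, 17.2% for Bhlhe41 and 36.6% for Hlf. The stretches were not matched to the genes in base composition or gene content, so the shares do not show enrichment. These are counts of letters, not of bound sites, and a window without them says nothing of the factor.

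Over the whole sections, 5 of the 7 members were lower in C75S than in WT by more than 0.5 on the log2 scale, the fold used here to call a difference, and 0 were higher by as much. Among 11998 genes with at least 50 UMIs, 7.08% were lower and 3.33% higher by that fold. The median log2 ratio of C75S over WT was -1.38 over the members and -0.05 over all genes. As the members were chosen on this contrast, the counts describe them and nothing is read from them.

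**Figure D1:**
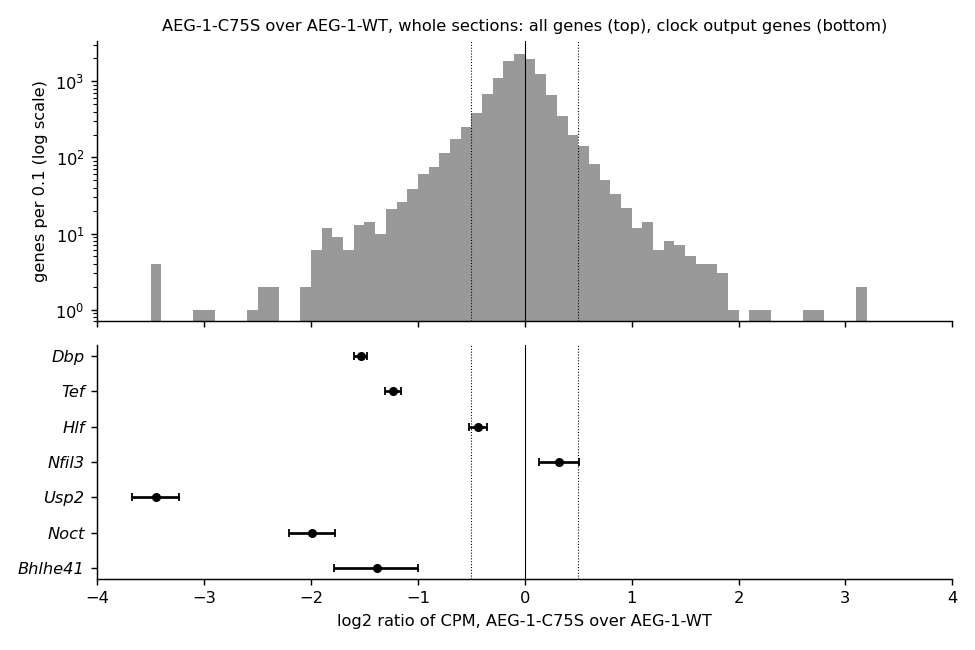
The log2 ratio of CPM, C75S over WT, is plotted for all 11998 genes with at least 50 UMIs as a histogram with a logarithmic count axis (top; 3 genes lie beyond the axis) and for the 7 clock output genes with their 95% counting intervals (bottom). Dotted lines mark 0.5 on either side of 0, and Usp2 at -3.45 sits at the far left edge of the histogram while Nfil3 at 0.32 is the only member right of 0.

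Dbp, the PAR bZIP activator whose rhythm in liver is among the widest known, had 9429 UMIs in WT and 3206 in C75S. These sums are 223 CPM (219 to 228) and 76.9 CPM (74.3 to 79.6), and the C75S level was 34.5% of the WT level. The log2 ratio was -1.54 (-1.59 to -1.48), the 57th lowest of the 11998 genes.
Tef, which binds the same D-boxes, gave 4673 and 1962 UMIs, or 111 CPM in WT and 47.1 CPM in C75S. Its log2 ratio was -1.23 (-1.31 to -1.16). Hlf, the third activator of the family, stood closer between the sections than Dbp and Tef did. It gave 2642 and 1922 UMIs, 62.5 and 46.1 CPM, with a log2 ratio of -0.44 (-0.52 to -0.35), which did not reach the fold of 0.5. The 3 activators were thus all lower in C75S, with intervals that did not meet, in the order Dbp, Tef, Hlf. Tef was the 99th lowest of the 11998 genes and Hlf the 1046th, so 8.71% of genes had a lower ratio than Hlf. The median gene was itself at -0.05. The share of all genes lower by any amount was not computed, so nothing is read from the count of 3.

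Nfil3, the repressor that competes with them for D-boxes, was the only measured member with the higher level in C75S. It had 429 UMIs in WT and 528 in C75S, which are 10.2 CPM (9.22 to 11.2) and 12.7 CPM (11.6 to 13.8). The intervals of the sections did not overlap, and the log2 ratio of 0.32 (0.13 to 0.51) was below the fold of 0.5.

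Usp2, a deubiquitinating enzyme with a rhythmic liver transcript, showed the widest gap of the members. It had 2084 UMIs in WT and 188 in C75S, 49.3 CPM (47.2 to 51.5) and 4.51 CPM (3.89 to 5.20). The C75S level was 9.15% (7.83 to 10.6) of the WT level, a log2 ratio of -3.45 (-3.67 to -3.23). Among the 6883 genes with at least 1000 UMIs in all, Usp2 had the lowest ratio, next to Serpina1e, a serpin of the alpha-1-antitrypsin family, at -3.44. Among the 11998 genes with at least 50 UMIs, Usp2 was the 2nd lowest, after Fmr1nb at -5.83.
Noct (nocturnin), a rhythmic phosphatase of NADPH first described as a deadenylase, had 906 and 225 UMIs, 21.4 and 5.40 CPM. Its log2 ratio of -1.99 (-2.21 to -1.78) was the 3rd lowest of the 6883 genes with at least 1000 UMIs, followed by the clock repressors Per2 and Per3. Among the 11998 genes Noct was the 16th lowest. Bhlhe41 (DEC2), a repressor that binds E-boxes, was sparse, with 201 and 76 UMIs. Its levels were 4.76 CPM in WT and 1.82 CPM in C75S, a log2 ratio of -1.38 (-1.78 to -0.996) with the widest interval of the group. Levels were compared only within a gene, since probe sets differ between genes and give no level per length.

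UMIs of Dbp, Tef and Hlf were spread over most spots rather than held by a few. In WT a spot had a median of 4 Dbp UMIs and at most 17, and in C75S a median of 1 and at most 10. Dbp was found in 96.6% of WT spots and 73.5% of C75S spots, and Usp2 in 57.04% and 8.04%. The share in WT and in C75S was 84.6% and 57.6% for Tef, 66.2% and 55.9% for Hlf, 32.8% and 9.57% for Noct, and 16.6% and 21.3% for Nfil3. As C75S spots were deeper in the median, the shares were also taken after each spot was thinned to 3000 UMIs, with 4 WT and 3 C75S spots left out as shallower. The thinned shares were 49.6% and 21.0% for Dbp, 12.8% and 1.34% for Usp2, 17.0% and 14.0% for Hlf, and 2.95% and 3.61% for Nfil3, in the same order of sections as the unthinned shares.

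**Figure D2:**
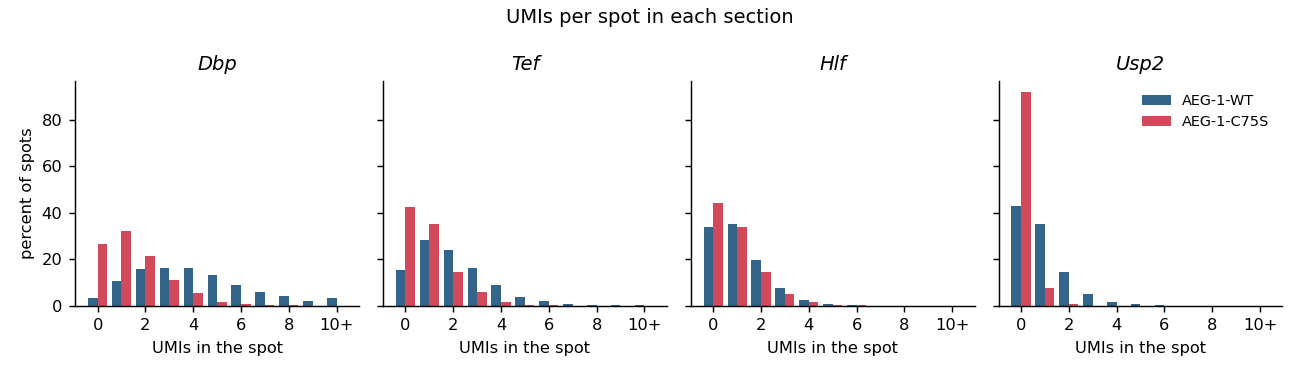
The percent of spots (vertical axis) with each number of UMIs (horizontal axis, 10 and more joined) is shown for Dbp, Tef, Hlf and Usp2 in the WT section (blue) and the C75S section (red), without thinning. The whole Dbp distribution lies lower in C75S, with a median of 1 against 4 UMIs, and for Usp2 the bar at 0 UMIs holds all but 8.04% of C75S spots.

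The liver lobule runs from the portal tract, where blood enters, to the central vein, and hepatocytes differ along it. To follow the members along this axis, the spots of each section were ordered by (Cyp2f2 + 1)/(Cyp2e1 + 1), the ratio of a periportal to a pericentral cytochrome P450, and split into 5 quintiles from 1, periportal, to 5, pericentral. Each quintile held 461 or 462 WT spots and 432 or 433 C75S spots. Markers that did not order the spots followed the axis in both sections. Hal, an enzyme of histidine breakdown, was lower in quintile 5 than in quintile 1 by a log2 ratio of -2.11 in WT and -1.93 in C75S, and Oat, ornithine aminotransferase of pericentral cells, was higher by 3.08 and 2.96.

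Dbp was higher toward the pericentral end in WT. Its levels in quintiles 1 to 5 were 198, 207, 224, 238 and 250 CPM in WT and 74.3, 75.3, 74.1, 76.3 and 84.5 CPM in C75S. The log2 ratio of quintile 5 over quintile 1 was 0.34 (0.24 to 0.44) and 0.19 (0.03 to 0.35), respectively, and the difference between these was -0.15 (-0.34 to 0.03), so the slopes could not be told apart at this depth.
Tef was nearly level, with 109, 112, 107, 108 and 118 CPM in WT and 46.5, 44.2, 48.1, 47.5 and 49.3 CPM in C75S. Hlf had its highest level at the pericentral end in both sections, at 53.3, 62.3, 58.8, 68.2 and 70.1 CPM in WT and 44.0, 44.2, 43.0, 46.4 and 52.9 CPM in C75S. The Hlf ratio of the ends was 0.40 (0.21 to 0.58) in WT and 0.27 (0.06 to 0.47) in C75S. The sections nearly met for Hlf alone among the activators, since the highest C75S quintile, 52.9 CPM, lay just under the lowest WT quintile, 53.3 CPM.

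Noct ran the other way. Its WT levels were lower at each step along the axis, at 26.6, 25.0, 21.9, 20.02 and 13.4 CPM, and quintiles 4 and 5 were the only neighbours of any member whose intervals did not overlap. In C75S they were 6.48, 5.17, 5.25, 5.85 and 4.30 CPM. The log2 ratio of the ends was -0.996 (-1.35 to -0.65) in WT and -0.59 (-1.25 to 0.05) in C75S, with a difference of 0.40 (-0.30 to 1.10). Noct was thus higher at the periportal end of the axis in WT, against the direction of Dbp and Hlf, while in C75S the interval included 0.

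Usp2 had no clear slope in either section, with 44.6, 49.6, 47.7, 53.5 and 50.9 CPM in WT and 5.11, 4.38, 4.001, 4.18 and 4.90 CPM in C75S. Nfil3 was at 11.2, 8.77, 9.62, 9.95 and 11.5 CPM in WT and at 12.2, 12.7, 12.8, 11.6 and 14.1 CPM in C75S. Every C75S quintile of Nfil3 was above every WT quintile, by little, and quintile 2 alone had a log2 ratio between sections whose interval lay above 0. Bhlhe41 was at 3.27, 4.27, 6.37, 4.23 and 5.55 CPM in WT and 1.37, 2.36, 1.75, 1.79 and 1.79 CPM in C75S. The Bhlhe41 ratio of the ends was 0.76 (0.03 to 1.52) in WT, and in C75S the ends together had fewer than 50 UMIs.

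**Figure D3:**
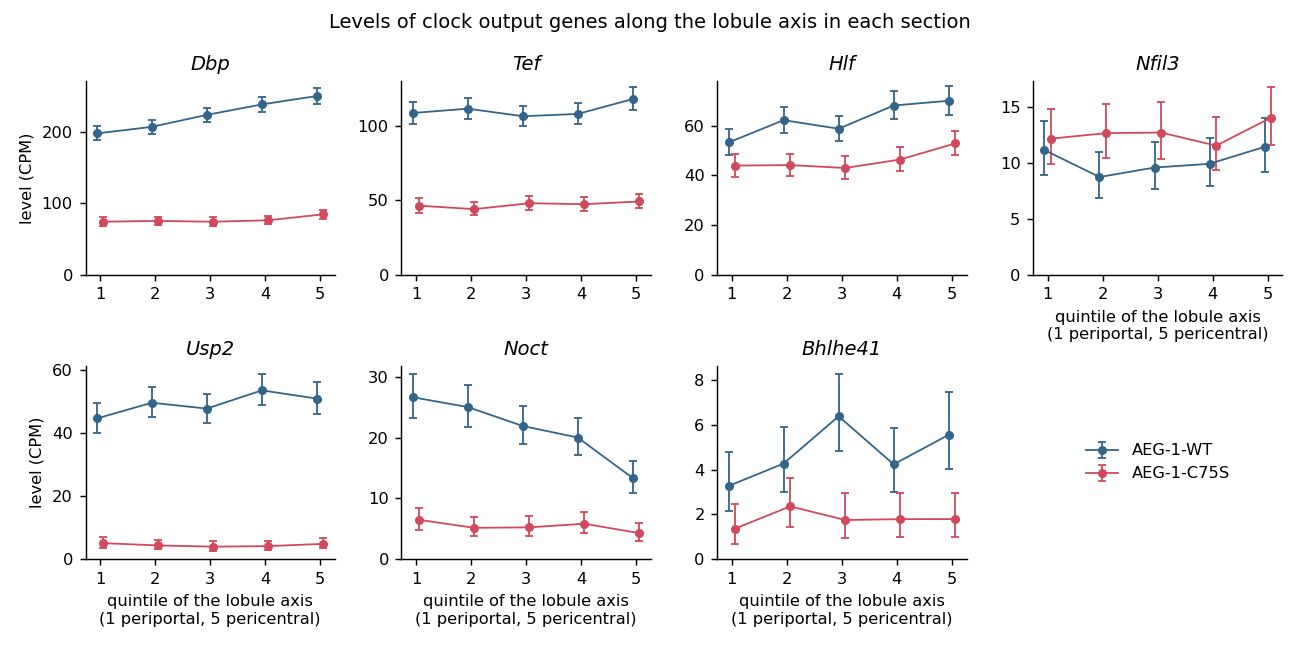
Each panel shows the level of a clock output gene in CPM (vertical axis from 0, own scale per panel) in the 5 quintiles of the lobule axis (horizontal axis) for the WT section (blue) and the C75S section (red), with 95% counting intervals. Dbp is higher and Noct lower toward the pericentral end in WT, and the red line lies below the blue at all points for each member except Nfil3.

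By the fold of 0.5, 1 of 7 members was lower at the pericentral end in WT (Noct), where 4.97% of 9931 genes were, and 1 was higher (Bhlhe41), where 8.53% were. In C75S, 1 of 6 was lower (Noct), against 3.8% of 9922 genes, and 0 were higher, against 7.62%. The median gene was itself higher at the pericentral end by 0.12 in WT and 0.10 in C75S. Relative to the median gene, Dbp was higher at the pericentral end by 0.22 (0.12 to 0.32) in WT and by 0.09 (-0.07 to 0.25) in C75S, and Hlf by 0.28 (0.09 to 0.46) and 0.17 (-0.04 to 0.38). The slopes of Dbp and Hlf in C75S thus had intervals above 0 only before this centring. Noct was at -1.12 (-1.47 to -0.77) in WT and -0.69 (-1.34 to -0.05) in C75S on the same scale, so its C75S interval lay below 0 only after the centring. The WT interval of Bhlhe41 then included 0 (-0.09 to 1.40). Tef turned to -0.01 in C75S and was level in WT, and Nfil3 turned to -0.08 in WT but stayed above 0 in C75S, at 0.11.

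**Figure D4:**
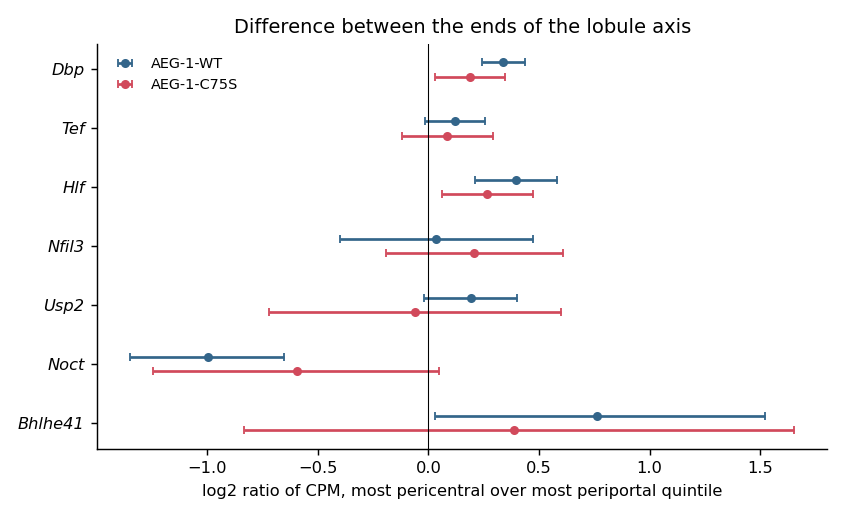
The log2 ratio of CPM in the most pericentral over the most periportal quintile (horizontal axis) is shown for each clock output gene in the WT section (blue) and the C75S section (red), with 95% counting intervals. The interval of Noct in WT (-1.35 to -0.65) lies wholly left of 0, those of Dbp and Hlf lie right of 0 in both sections on this scale, which is not centred on the median gene, and the intervals of the sections overlap for every gene.

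The gap between the sections was present in every quintile, as cut within each section. Quintiles of the same number need not be the same zone. When cut on both sections together, the most pericentral quintile held 578 WT and 316 C75S spots, and the ratios between sections were not computed for that cut. The log2 ratio of C75S over WT ranged over the 5 quintiles from -1.64 to -1.41 for Dbp, from -1.34 to -1.15 for Tef and from -0.55 to -0.28 for Hlf. It ranged from -3.68 to -3.13 for Usp2, from -2.28 to -1.64 for Noct and from -1.86 to -0.85 for Bhlhe41, and the intervals of these 6 members lay below 0 in all 5 quintiles. For Nfil3 it ranged from 0.13 to 0.54. The share of all genes with intervals below 0 in all 5 quintiles was not computed. As the members were also chosen on this contrast, nothing is read from the count of 6.

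The other genes of the clock were described by lists of the pathway's known parts. These lists, and that of the PAR bZIP targets, were chosen with earlier results of these data known. Their counts and medians therefore describe the listed genes, and nothing is read from them. The activators of the loop are not reported in full, so no count or median over them is given. Arntl, the partner of CLOCK, was at 5.49 CPM in WT and 17.9 CPM in C75S, a log2 ratio of 1.70 (1.49 to 1.92), and Npas2, which can take the place of CLOCK, was at 0.52 and 2.04 CPM. Clock itself had a log2 ratio of 0.40 and Rora, a receptor that drives Arntl, 0.04.

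Of 8 repressors of the loop, 5 were lower in C75S by more than 0.5 and 0 were higher, where 7.08% and 3.33% of all genes were, with a median of -0.63. Per2 was at 29.9 CPM in WT and 7.63 CPM in C75S, Per3 at 43.7 and 11.2 CPM, and Per1 at 35.4 and 17.5 CPM. Cry2 had a log2 ratio of -0.70 and Nr1d2, a REV-ERB receptor, -0.56. Nr1d1, the other REV-ERB receptor, was at -0.13, Cry1 at -0.03 and Bhlhe40, the paralog of Bhlhe41, at -0.38. The paralogs thus stood apart in size, with Bhlhe41 at -1.38 and an interval (-1.78 to -0.996) that did not reach the Bhlhe40 interval (-0.43 to -0.33). Of the 6 kinases, ubiquitin ligases and other regulators of clock protein turnover that are reported and had enough UMIs, among them Csnk1d, Btrc and Gsk3b, 0 passed the fold, and their median was -0.05. Fbxl21, of the same list, had under 50 UMIs. Along the axis, Nr1d1 was higher at the pericentral end, with a log2 ratio of the ends of 0.48 (0.36 to 0.60) in WT and 0.27 (0.15 to 0.39) in C75S. The difference between these was -0.21 (-0.38 to -0.05). The genes that ordered the spots also had ends less far apart in C75S. The log2 ratio of the ends was -2.72 in WT and -2.29 in C75S for Cyp2f2, and 2.61 and 2.39 for Cyp2e1. The periportal markers Gls2 and Arg1 went the other way. Nr1d1 was not alone among the listed genes. The interval of the difference also lay below 0 for the PAR bZIP targets Alas1, at -0.18 (-0.32 to -0.05), and Cyp2a4, at -0.09 (-0.17 to -0.01). It lay above 0 for Btrc, at 0.55 (0.12 to 0.99), and Gsk3b, at 0.31 (0.001 to 0.61). The part of the axis in the difference of Nr1d1 or of these genes was not tested. The repressors did not share a direction. Nr1d2 was higher at that end in both sections, by 0.24, before centring on the median gene. Lower there were Cry1 in C75S, at -0.81 (-1.38 to -0.25), Per1 in C75S, at -0.35 (-0.68 to -0.01), and Bhlhe40 in WT, at -0.13 (-0.23 to -0.03). In the other section each was also below 0, with an interval that included 0. There Cry1 was at -0.12 (-0.67 to 0.43), Per1 at -0.15 (-0.39 to 0.09) and Bhlhe40 at -0.10 (-0.22 to 0.02). None of these values was centred on the median gene, which was itself higher at that end, so no difference between the sections is read from them. For Per2, Per3 and Cry2 the interval included 0 in both sections.

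Of 6 measured targets of the PAR bZIP activators, 2 were lower in C75S by more than 0.5, where 7.08% of all genes were, and 4 were within that fold, with a median of -0.32 beside -0.05 over all genes. Cyp7a1, the rate-limiting enzyme of bile acid synthesis, was at 185 CPM in WT and 67.5 CPM in C75S, a log2 ratio of -1.45 (-1.51 to -1.39), and Alas1, the first enzyme of heme synthesis, was at 268 and 159 CPM, a log2 ratio of -0.75. Por, the electron donor of the microsomal cytochromes P450, was at -0.29, Nr1i3, the receptor CAR, at -0.24, Ppara, a receptor of fatty acids, at -0.10, and Cyp2a4 at -0.35. Cyp2a4 shares near-identical sequence with Cyp2a5, so its counts are uncertain, and Cyp2a5 and Cyp2b10 were not analysed here.

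**Figure D5:**
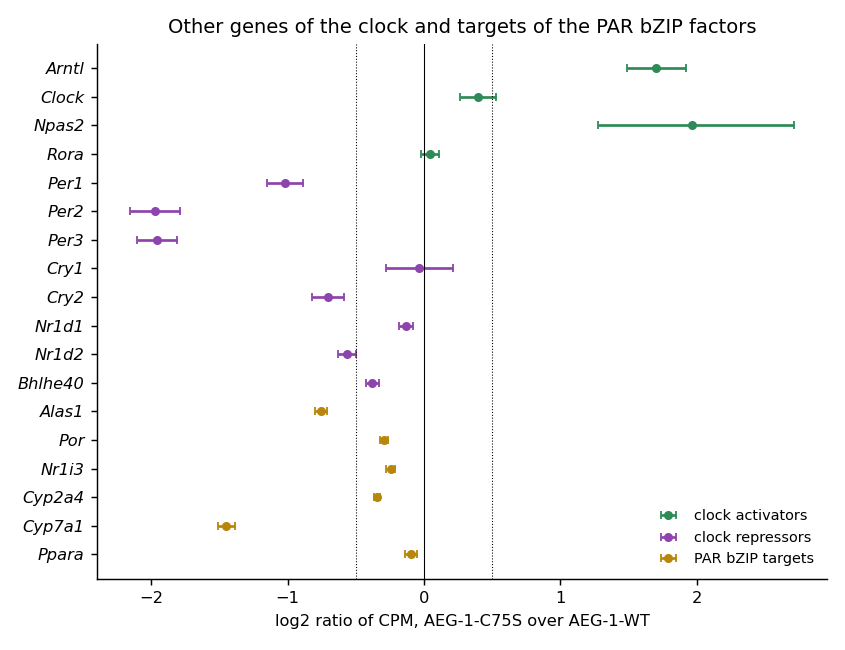
The log2 ratio of CPM, C75S over WT (horizontal axis), is shown with 95% counting intervals for the reported clock activators (green), the clock repressors (purple) and the measured targets of the PAR bZIP activators (gold). Dotted lines mark 0.5 on either side of 0, Arntl and Npas2 lie right of it, and Per2, Per3 and Cyp7a1 lie farthest left.

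The 3 genes whose levels over the 10 section quintiles were most like those of a member, by the root mean square difference of centred log2 CPM, were sought among 6883 genes. For Dbp they were Tk1 (0.118), Upp2 (0.139) and Map2k6 (0.154), for Tef they included Apol7a (0.098) and Gas1 (0.102), and for Hlf they were Gnpda1 (0.061), Chn2 (0.064) and Dgat2 (0.064). For Noct they were Mt2 (0.251), Thrsp (0.260) and A1bg (0.290), all of which had lower values at the pericentral end in both sections. Usp2 had only distant neighbours, Serpina1e (0.381), Per2 (0.744) and Per3 (0.749). The 10 points share 2 libraries, so the measure mostly follows the gap between the sections.

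Markers of cell types other than hepatocytes also differed between the sections. The summed level of 8 portal tract markers was 260 CPM in WT and 156 CPM in C75S, with 6 of 8 lower by more than 0.5. That of 4 Kupffer cell markers was 784 and 1046 CPM, with 1 of 4 higher, and that of 3 hemoglobin genes was 611 and 404 CPM, with 2 of 3 lower. The 4 stellate cell markers summed to 551 and 703 CPM, the 4 endothelial markers to 312 and 329 CPM, the 7 periportal hepatocyte markers to 6176 and 5345 CPM and the 6 pericentral hepatocyte markers to 8668 and 8057 CPM, and no marker was at 0. Their part in the differences of the members was not tested.

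The sections were also compared in the spots richest in these markers, the top 5% of each section, 115 WT and 108 C75S spots, with Marco left out of the Kupffer cell sum. The spots compared were not alike in marker level. In WT and C75S it was 2291 and 1178 CPM in portal tract-rich spots, 1797 and 2022 CPM in Kupffer cell-rich spots, and 4784 and 3635 CPM in red blood cell-rich spots. In portal tract-rich spots the log2 ratio of C75S over WT was -1.44 (-1.71 to -1.19) for Dbp, -3.31 (-4.56 to -2.27) for Usp2 and -1.80 (-2.90 to -0.84) for Noct. For Hlf (-0.76 to 0.01) and Bhlhe41 (-2.88 to 0.13) the interval included 0 there. In Kupffer cell-rich spots it was -1.40 for Dbp and -2.96 for Usp2, and in red blood cell-rich spots -1.09 (-1.36 to -0.83) and -2.62 (-3.67 to -1.72). Nfil3 did not keep its direction in Kupffer cell-rich spots, where 19 WT and 12 C75S UMIs gave -0.80 (-1.97 to 0.32), and the 3 and 2 UMIs of Bhlhe41 there were too few to compare. Within a section, the members' levels in marker-rich spots and in the rest had a ratio whose interval left out 0 in 5 of 42 cases. The share of all genes with such a ratio was not computed, so nothing is read from this count. Dbp was at 190 CPM in Kupffer cell-rich WT spots and 225 CPM in the other WT spots, and in C75S it was at 106 CPM in red blood cell-rich spots and 75.9 CPM in the others. Noct in red blood cell-rich C75S spots was at 10.9 CPM, from 16 UMIs, against 5.20 CPM in the others. Nfil3 in Kupffer cell-rich C75S spots was at 6.40 CPM, from 12 UMIs, against 13.0 CPM in the others, a log2 ratio of -1.02 (-1.98 to -0.20). Tef in Kupffer cell-rich WT spots was at 94.8 CPM against 111 CPM in the others. Noct, though higher at the periportal end of the axis in WT, was at 21.0 CPM in portal tract-rich WT spots and 21.5 CPM in the others. That log2 ratio was -0.03 (-0.49 to 0.39).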

How the data were processed

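The authors made the deposited tables with Space Ranger 2.0.1 against the mm10 reference and probe set, and each gives, for 1 section, raw UMI counts of 19465 genes in every spot covered by tissue, with no normalization. Seurat 4.3.0 is also named in the submitters' notes, and its output was not used here. For 11 repeated symbols the first row was taken.

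Spots with over 50000 UMIs were left out (7 AEG-1-WT, 4 AEG-1-C75S), which left 42246988 and 41674347 UMIs. No kept spot had a number of genes outside the range kept in the methods. Counts were summed over spots and divided by the section or quintile total to give CPM. Sums have exact Poisson intervals and ratios exact binomial intervals. The difference of 2 ratios has an approximate interval, from their combined counting error under a normal distribution. As each genotype has 1 section, no test was run. Python 3.11.15, numpy 2.4.6, scipy 1.17.1 and pandas 2.3.3 were used, with edgeR 4.0.16 for TMM factors. The ratio interval was tested on simulated section sums that held counting error only. That test therefore says nothing of the spread between spots or animals. The members and gene lists were chosen with earlier results of these data known.

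The named genes are the members, the genes of the clock and target lists, the 3 most alike genes of members with at least 1000 UMIs, and markers, of which 2 are not reported here. Alternatives were the spot filter, the weight of spots, 3 scalings, thinning, spots matched on depth, leaving out portal-rich spots, another marker axis, quintiles cut on both sections, a split into 3 parts, and other minimums and folds. Promoter windows came from RefSeq (GRCm38.p6) and gene positions from GENCODE vM21. Protein sequences were not used here.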

Additional observations from a re-analysis of the deposited data

How the results depend on the processing

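The ratios between the sections were computed under 8 alternatives. All kept their sign, and 53 of 56 values lay within the main interval. The exceptions were Dbp at -1.46 with equal weight per spot, and Hlf at -0.31 and Bhlhe41 at -1.80 after thinning to 3000 UMIs per spot, and the cause was not tested. Over the alternatives Usp2 ranged from -3.49 to -3.32 and Noct from -2.09 to -1.83. At a fold of 0.3, Nfil3 counted as higher, which made 1 member, and Hlf as lower, which made 6. The background of lower genes was 16.0% at a fold of 0.3 and 1.42% at a fold of 1, and that of higher genes was 7.94% and 0.60%. With a minimum of 10 UMIs, 10.25% of genes were lower and 5.10% higher by 0.5. With a minimum of 200 UMIs, 4.61% were lower and 2.445% higher. Along the axis, 96 of 98 values lay within the main interval. Dbp in AEG-1-WT was at 0.22 when centred on the median gene or scaled without the 20 most abundant genes, and 8 values changed sign, of Tef, Nfil3, and in AEG-1-C75S Usp2 and Bhlhe41. The Bhlhe41 value was 0.39 (-0.83 to 1.65) with quintiles, from 11 and 15 UMIs at the ends. With a split into 3 parts it was -0.13, within that interval. No paired analysis was possible because each genotype has 1 section. Depth limits Bhlhe41, Nfil3 and the AEG-1-C75S values of Usp2 and Noct along the axis.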
